A study of Homo sapiens with 7 samples.

Results

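The genes described here are 10 insulin and insulin-like growth factor (IGF) signalling genes, chosen by name and not by their values: the ligand IGF2, the binding protein IGFBP3, the receptors INSR and IGF1R, the receptor substrates IRS1 and IRS2, the PI3K subunit PIK3R1, the kinases AKT1 and AKT2, and the transcription factor FOXO1. All 10 symbols mapped to Ensembl IDs among the 66025 gene IDs of the count table, and all 10 were among the 22926 genes with enough counts to be tested. RNA-seq was carried out on insulin-expressing β-like cells that had been differentiated in vitro from H1, an established human embryonic stem cell line, and then sorted. The iKD2 cells carried a lentiviral shRNA that doxycycline (Dox) switches on against METTL14, which belongs to the complex that writes m6A on mRNA, and the iSCR cells carried a non-targeting (scramble) construct. Both had been transduced and selected with puromycin. The groups were iKD2 Dox+ (shRNA induced, libraries a, b and c, n = 3), iKD2 Dox- (the same line without Dox, n = 2, libraries b and c) and iSCR Dox+ (the scramble line with Dox, n = 2, libraries a and b). Each control thus differs from iKD2 Dox+ in more than the induced shRNA, since iKD2 Dox- lacks Dox and iSCR Dox+ is another line. There was no scramble group without Dox. Effects of Dox, line and knockdown therefore cannot be fully told apart, even with both controls.

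Insulin and IGF1 or IGF2 bind the receptor tyrosine kinases encoded by INSR and IGF1R, which phosphorylate the IRS proteins. These recruit PI3K, whose lipid product activates AKT, and AKT phosphorylates FOXO1 and keeps it out of the nucleus. β-cells respond to the insulin that they secrete, and this pathway is known for its part in β-cell mass, survival and identity, with IRS2 as a main substrate.

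Total counts were 14875429 to 20639156 per library, and 19652 to 23747 genes had at least 1 count. METTL14 itself was at 18.7, 16.4 and 49.1 CPM in libraries a, b and c of iKD2 Dox+, 39.4 and 22.6 in libraries b and c of iKD2 Dox-, and 36.1 and 32.2 in libraries a and b of iSCR Dox+. CPM are depth-scaled counts, with TMM (the trimmed mean of M-values) as the scaling. Since iKD2 Dox+ c, going by its label, had the highest METTL14 level of all 7, any direction drawn from it rests on that label. By edgeR, METTL14 in iKD2 Dox+ had a log2 fold change of -0.14 (SE 0.63, unadjusted p = 0.821) against iKD2 Dox-. Against iSCR Dox+ it was -0.28 (SE 0.63, unadjusted p = 0.656). The groups overlapped in both comparisons, so these counts do not show a lower METTL14 mRNA level in iKD2 Dox+. The summed level of 10 β-cell markers was 25230 to 29570 CPM in iKD2 Dox+, 33580 to 37270 in iKD2 Dox- and 39540 to 39980 in iSCR Dox+, so that the iKD2 Dox+ libraries lay below all 4 controls. INS and CHGA made up 93.7% to 96.2% of this sum, and of the 10 markers 4 (INS, CHGA, PDX1 and PAX6) were below all controls while the other 6, ABCC8, IAPP and NKX6-1 among them, overlapped with them. INS and PDX1 were counted in every library, while MAFA was listed at 0 in iKD2 Dox+ a, and G6PC2 in iKD2 Dox+ a and iSCR Dox+ a. Summed levels of 5 ductal markers (896 to 985 CPM in iKD2 Dox+, 454 to 557 in iKD2 Dox- and 527 to 633 in iSCR Dox+, with 4 of 5 counted in every library) and of 8 mesenchymal markers (714 to 1133, 298 to 433 and 655 to 696 CPM, with 7 of 8 counted in every library) were higher in iKD2 Dox+ than in all 4 controls. Of the single markers, KRT19 and SOX9 among the ductal and LUM and PDGFRB among the mesenchymal ones were above all controls. The other 3 ductal and 6 mesenchymal markers overlapped with the controls. KRT19 and SOX9 made up 75% to 84% of the ductal sum. COL3A1 and COL1A1, which both overlapped, made up 72% to 85% of the mesenchymal sum. Over all tested genes, 3.47% were above and 2.83% below all 4 controls. Summed alpha-cell markers ranged from 5796 to 10270 CPM in iKD2 Dox+, 10020 to 13850 in iKD2 Dox- and 10490 to 11950 in iSCR Dox+. The sum of 6 hepatic markers was lower in iKD2 Dox+ (435 to 563 CPM) than in all 4 controls. It was 636 to 745 CPM in iKD2 Dox- and 665 to 902 in iSCR Dox+. Of these markers, SERPINA1 was below all controls and the other 5 overlapped with them. In such bulk samples, fewer cells of a type and less RNA per cell cannot be told apart, and the part of these marker differences in the values that follow was not tested.

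The levels of the 10 genes were first set in order, as counts per kilobase of merged exons, scaled to the same total in each library. IGF2 stood far above the rest at 9227 ± 1525 (SD over 7 libraries), followed by IGFBP3 at 280.1 ± 90.0. IGF1R (70.4 ± 12.0) and IRS2 (54.5 ± 14.6) came next. AKT1 (29.8 ± 3.87), FOXO1 (28.0 ± 8.63) and INSR (27.1 ± 6.16) lay close together, and AKT2 (15.1 ± 3.93), PIK3R1 (14.3 ± 3.84) and IRS1 (11.7 ± 4.91) were the lowest.

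In every library, IGF2 exceeded IGFBP3, IGFBP3 exceeded IGF1R, IGF1R exceeded IRS2, IRS2 exceeded AKT1 and INSR exceeded AKT2. By contrast, AKT1 exceeded FOXO1 in 4 of 7 libraries, FOXO1 exceeded INSR in 4 of 7, AKT2 exceeded PIK3R1 in 3 of 7 and PIK3R1 exceeded IRS1 in 5 of 7. The order of these neighbours therefore did not hold beyond their spread. The annotated exons of AKT1 and AKT2 include retained introns (11162 and 15035 bases in all). With the longest annotated transcript as the length (3916 and 5300 bases), an alternative chosen after seeing the data, AKT1 (72.5 ± 9.22) was placed above IGF1R (68.4 ± 10.4), and AKT2 (36.6 ± 9.99) above INSR (26.9 ± 5.90).

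**Figure D1:**
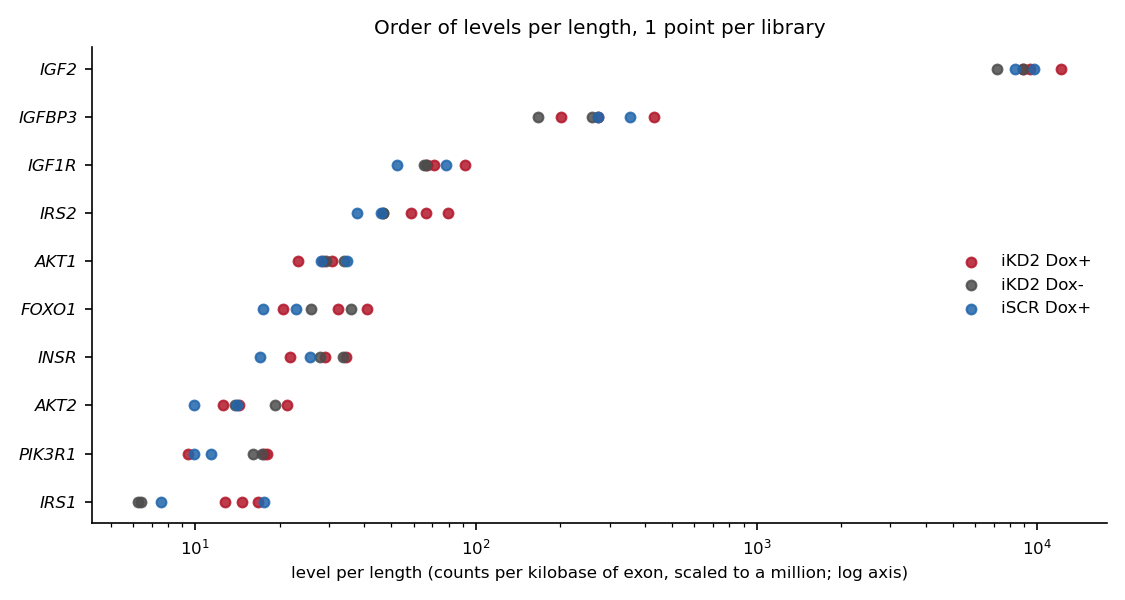
Level per length of the 10 genes (x axis, counts per kilobase of merged exon scaled to the same total in each library, log axis), with 1 point per library coloured by group and genes ordered by their mean. IGF2 sits between 7187 and 12140, IGFBP3 between 167 and 433, and the other 8 genes lie below 100, where all neighbours in the order overlap except IRS2 and AKT1.

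None of the 10 genes changed past an adjusted p of 0.05 in any comparison by edgeR, and none did by DESeq2 or limma voom. By edgeR, 0.0393% of all tested genes passed this threshold between iKD2 Dox+ and iKD2 Dox-. The share was 0.0262% between iKD2 Dox+ and iSCR Dox+ and 0.0131% between the control groups. In the same order, it was 0.957%, 3.8% and 2.07% by DESeq2 and 0.0349%, 0.0174% and 0.00872% by limma voom. At an unadjusted p under 0.05 by edgeR, 1 of the 10 passed between iKD2 Dox+ and iKD2 Dox- (IRS1, background 3.72%). Between iKD2 Dox+ and iSCR Dox+ 1 passed (IRS2, background 6.72%), and between the controls 0 (background 4.45%). The criterion stated in the study, which asks for a change over 1.5-fold besides this p, was met by 1, 0 and 0 of the 10 genes, against 3.55%, 6.52% and 4.38% of all genes. The median log2 fold change of the 10 was -0.06, 0.20 and 0.10 in these comparisons, beside 0.01, 0.08 and 0.04 over all tested genes.

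Separation of the libraries was more frequent than calls. Between iKD2 Dox+ and iKD2 Dox-, 3 of the 10 were higher in every iKD2 Dox+ library (IGF2, IRS1 and IRS2; 8.72% of all genes) and 2 were lower (INSR and AKT1; 11.6%). Between iKD2 Dox+ and iSCR Dox+, 1 was higher (IRS2; 11.3%) and 1 lower (AKT1; 9.23%). Between iKD2 Dox- and iSCR Dox+, which differ in line and in Dox, 3 were higher (INSR, IRS2 and PIK3R1; 19.9%) and 3 lower (IGF2, IGFBP3 and IRS1; 13.2%). Set against both controls at once, IRS2 was the 1 gene of the 10 above all 4 control libraries (3.47% of all genes) and AKT1 the 1 gene below all 4 (2.83%). The comparisons share libraries and are not independent of one another.

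**Figure D2:**
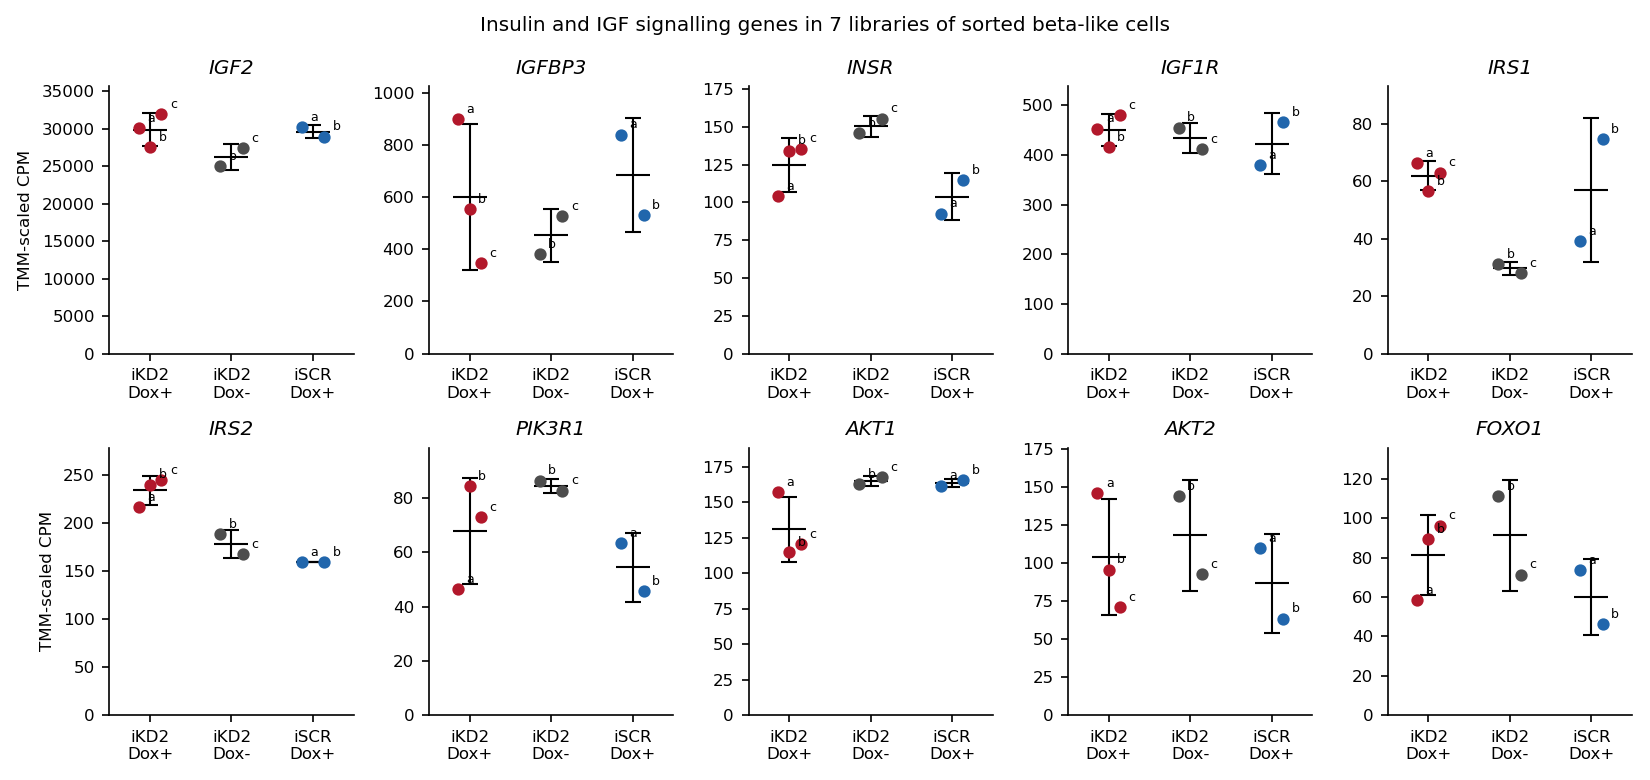
TMM-scaled CPM of each gene (y axis, from 0) in the 3 groups, with 1 point per library marked by its letter, and the mean ± SD of the group as lines. The iKD2 Dox+ libraries lie above all controls for IRS2 and below all controls for AKT1. IGFBP3 and PIK3R1 separate only between the control groups, and IGF1R, AKT2 and FOXO1 overlap between all groups.

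IGF2, a fetal growth factor and ligand of IGF1R, lies at chr11:2129112-2149603 (GRCh38, minus strand), just beside INS. It was at 30050, 27540 and 31960 CPM in libraries a, b and c of iKD2 Dox+, 25020 and 27450 in libraries b and c of iKD2 Dox-, and 30170 and 28950 in libraries a and b of iSCR Dox+. IGF2 had the highest count of any gene in all 7 libraries, with 2.49% to 3.26% of all counts. Per kilobase of exon it ranked from 7 to 23 over the libraries, while INS ranked 2 or 3, and the level of IGF2 per length was 0.150 to 0.313 of that of INS.

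Across groups IGF2 was among the steadiest of the 10, with a coefficient of variation of 7.92% over the 7 libraries. Both iKD2 Dox- libraries were below the others, iKD2 Dox- c narrowly so. The log2 fold change was 0.19 (SE 0.09, 95% interval -0.00068 to 0.37) between iKD2 Dox+ and iKD2 Dox-, with unadjusted p = 0.0508 and adjusted p = 1 by edgeR. Against iSCR Dox+ it was 0.01 (interval -0.17 to 0.20), an interval that leaves room for a change of at most 1.15-fold upwards and 0.888-fold downwards.

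The IGF2 locus has genes whose exons overlap. INS-IGF2, a read-through transcript of both genes, shares 1460 exonic bases with IGF2 on the same strand, and the unnamed gene ENSG00000284779 shares 5144 bases, or 73.7% of the IGF2 exons. The count assigned to INS-IGF2 was 0 in iKD2 Dox+ a, iKD2 Dox+ c and iSCR Dox+ a and 526 to 951 in the other 4 libraries, at most 0.215% of that of IGF2. ENSG00000284779 reached at most 0.467% of IGF2. Summing IGF2 with INS-IGF2 gave a log2 fold change of 0.19 against iKD2 Dox-. IGF2-AS, on the opposite strand, was at 2.99 to 18.4 CPM, and the neighbouring TH, tyrosine hydroxylase, was at 9.55 to 27.8 CPM. H19, the non-coding RNA expressed from the other parental copy of this imprinted domain, was listed at 0 to 34 counts in any library, or at most 1.85 CPM.

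IGFBP3, which binds IGFs outside the cell and limits their access to receptors, lies at chr7:45912245-45921874 (minus strand). It was at 902, 553.6 and 346 CPM in libraries a, b and c of iKD2 Dox+, 381 and 527 in libraries b and c of iKD2 Dox-, and 841 and 532 in libraries a and b of iSCR Dox+. The 2 highest libraries were the a libraries of 2 different groups, and iKD2 Dox+ spanned the values of all others. Its log2 fold change was 0.40 (SE 0.39) against iKD2 Dox- and -0.19 (SE 0.39) against iSCR Dox+, with adjusted p = 1 and 0.958 by edgeR. It was -0.60 (SE 0.43, adjusted p = 0.846) between the controls. These values turned on single libraries: without iKD2 Dox+ a the first became -0.01, and without iSCR Dox+ b the last became -0.89 with adjusted p = 0.0398.

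The receptors INSR (chr19:7112255-7294034, minus strand) and IGF1R (chr15:98648539-98964530, plus strand) encode the related tyrosine kinases for insulin and IGFs. INSR was at 104, 134 and 136 CPM in libraries a, b and c of iKD2 Dox+, 146 and 155 in libraries b and c of iKD2 Dox-, and 92.6 and 115 in libraries a and b of iSCR Dox+. The iKD2 Dox+ libraries were all below iKD2 Dox- but overlapped with iSCR Dox+. The log2 fold changes were -0.27 (SE 0.29) against iKD2 Dox- and 0.27 (SE 0.29) against iSCR Dox+, so the sign depended on the control. The controls themselves differed by 0.54 (SE 0.32, adjusted p = 0.826 by edgeR).

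IGF1R was at 453, 416 and 481 CPM in libraries a, b and c of iKD2 Dox+, 455 and 412 in libraries b and c of iKD2 Dox-, and 379.9 and 466 in libraries a and b of iSCR Dox+. The 3 groups overlapped, and its coefficient of variation of 8.15% was close to that of IGF2. The log2 fold changes were 0.05 (95% interval -0.35 to 0.46) and 0.09 (-0.32 to 0.50) against the 2 controls, so that changes over about 1.41-fold upwards were outside both intervals.

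The largest fold change of the 10 genes was that of a substrate. IRS1 (chr2:226731317-226799759, minus strand) was at 66.5, 56.7 and 63.0 CPM in libraries a, b and c of iKD2 Dox+, 31.2 and 28.2 in libraries b and c of iKD2 Dox-, and 39.1 and 74.7 in libraries a and b of iSCR Dox+. All iKD2 Dox+ libraries were above both iKD2 Dox- libraries, but the iSCR Dox+ libraries lay on either side of them. The log2 fold change against iKD2 Dox- was 1.07 (SE 0.46, 95% interval 0.11 to 2.02), with unadjusted p = 0.0305 and adjusted p = 1 by edgeR. This was the only value of the 10 genes that met the study criterion. It stayed between 0.99 and 1.17 under every alternative, but its unadjusted p was above 0.05 when iKD2 Dox+ a (0.0557), iKD2 Dox+ c (0.0586), iKD2 Dox- b (0.0956) or iKD2 Dox- c (0.142) was left out. Against iSCR Dox+ the value was 0.13 (SE 0.45), and -0.27 without iSCR Dox+ a. The controls differed by -0.94 (SE 0.49, adjusted p = 0.826 by edgeR), nearly as much as iKD2 Dox+ and iKD2 Dox-.

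IRS2 (chr13:109752698-109786568, minus strand) is the substrate most closely tied to β-cell growth and survival, and its promoter is a known target of FOXO factors. It was at 217, 240.2 and 245 CPM in libraries a, b and c of iKD2 Dox+, 189 and 168 in libraries b and c of iKD2 Dox-, and 159 and 160 in libraries a and b of iSCR Dox+. The lowest iKD2 Dox+ library was therefore above the highest control. The log2 fold change was 0.55 (SE 0.24, 95% interval 0.06 to 1.05) against iSCR Dox+, with unadjusted p = 0.0311 and adjusted p = 0.699 by edgeR, and 0.39 (SE 0.24, interval -0.10 to 0.89) against iKD2 Dox-, with unadjusted p = 0.115 and adjusted p = 1. The controls differed by 0.16 (SE 0.26). Without iKD2 Dox+ c, the value against iSCR Dox+ was 0.51, with unadjusted p = 0.0717, and the unadjusted p was above 0.05 (0.0563 to 0.0860) whichever library other than iKD2 Dox+ a was left out. The mesenchymal and ductal marker sums given above were also highest in iKD2 Dox+, and their part in this value was not tested.

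Because IRS2 was the 1 gene of the 10 above all controls, the 250 bases before its RefSeq start (GRCh38.p14, chr13:109786584-109786833, minus strand) are shown, read 5′ to 3′ along the gene. Capitals mark TGTTTTG, a sequence of the insulin response type that FOXO factors can bind.

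IRS2: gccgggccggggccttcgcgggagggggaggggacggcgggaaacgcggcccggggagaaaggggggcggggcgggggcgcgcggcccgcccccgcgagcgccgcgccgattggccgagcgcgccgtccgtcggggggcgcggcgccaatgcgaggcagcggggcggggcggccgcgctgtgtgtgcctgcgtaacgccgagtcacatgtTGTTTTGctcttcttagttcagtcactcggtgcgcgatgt

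The match begins 40 bases before the start, on the strand of the gene, and 76.4% of the window is G or C. On either strand, TGTTTTG occurred in the same 250-base window of 4.3% of 35116 promoters, and among the 9 of the 10 genes in the promoter table only in that of IRS2. The related TGTTTAC, which does not overlap it, occurred in 2.98% of promoters and in none of the 9. IGF2 was the gene with no entry. Both motifs were chosen with the matches known, and a match describes these letters only.

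PIK3R1 (chr5:68215720-68301821, plus strand) encodes the p85 regulatory subunit through which PI3K binds phosphorylated IRS proteins. It was at 46.4, 84.5 and 72.9 CPM in libraries a, b and c of iKD2 Dox+, 86.5 and 82.8 in libraries b and c of iKD2 Dox-, and 63.6 and 45.6 in libraries a and b of iSCR Dox+. Only the controls separated, with iKD2 Dox- higher than iSCR Dox+ by 0.63 on the log2 scale (SE 0.42, adjusted p = 0.826 by edgeR). The values for iKD2 Dox+ were -0.32 (SE 0.38) against the first and 0.32 (SE 0.39) against the second.

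AKT1 (chr14:104769349-104795751, minus strand) and AKT2 (chr19:40230317-40285536, minus strand) encode serine/threonine kinases, of which AKT2 is known mainly for metabolic responses to insulin. AKT1 was at 157, 115 and 120.4 CPM in libraries a, b and c of iKD2 Dox+, 163 and 168 in libraries b and c of iKD2 Dox-, and 162 and 165 in libraries a and b of iSCR Dox+. The 4 control libraries lay close together, and all 3 iKD2 Dox+ libraries were below them, a only narrowly. The log2 fold changes were -0.34 (SE 0.27, 95% interval -0.89 to 0.22) against iKD2 Dox- and -0.32 (SE 0.27, interval -0.88 to 0.23) against iSCR Dox+, with adjusted p = 1 and 0.781 by edgeR. Both intervals include 0.

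AKT2 was at 146, 95.8 and 71.0 CPM in libraries a, b and c of iKD2 Dox+, 144 and 92.6 in libraries b and c of iKD2 Dox-, and 109.9 and 63.5 in libraries a and b of iSCR Dox+. The iKD2 Dox+ libraries alone spanned most of the range, and no pair of groups separated. Its log2 fold changes were -0.18 (SE 0.36), 0.27 (SE 0.36) and 0.45 (SE 0.40), with adjusted p between 0.911 and 1 by edgeR. Leaving out iKD2 Dox- b or iKD2 Dox+ c turned the first to 0.16 or 0.03.

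FOXO1 (chr13:40469953-40666597, minus strand) encodes the transcription factor that AKT restrains and that is known for maintaining β-cell identity under stress. It was at 58.5, 89.4 and 96.4 CPM in libraries a, b and c of iKD2 Dox+, 111.5 and 71.5 in libraries b and c of iKD2 Dox-, and 73.9 and 46.4 in libraries a and b of iSCR Dox+. All 3 groups overlapped. The log2 fold changes were -0.17 (SE 0.38) against iKD2 Dox- and 0.44 (SE 0.38) against iSCR Dox+, with adjusted p = 1 and 0.808 by edgeR, and 0.61 (SE 0.42) between the controls.

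**Figure D3:**
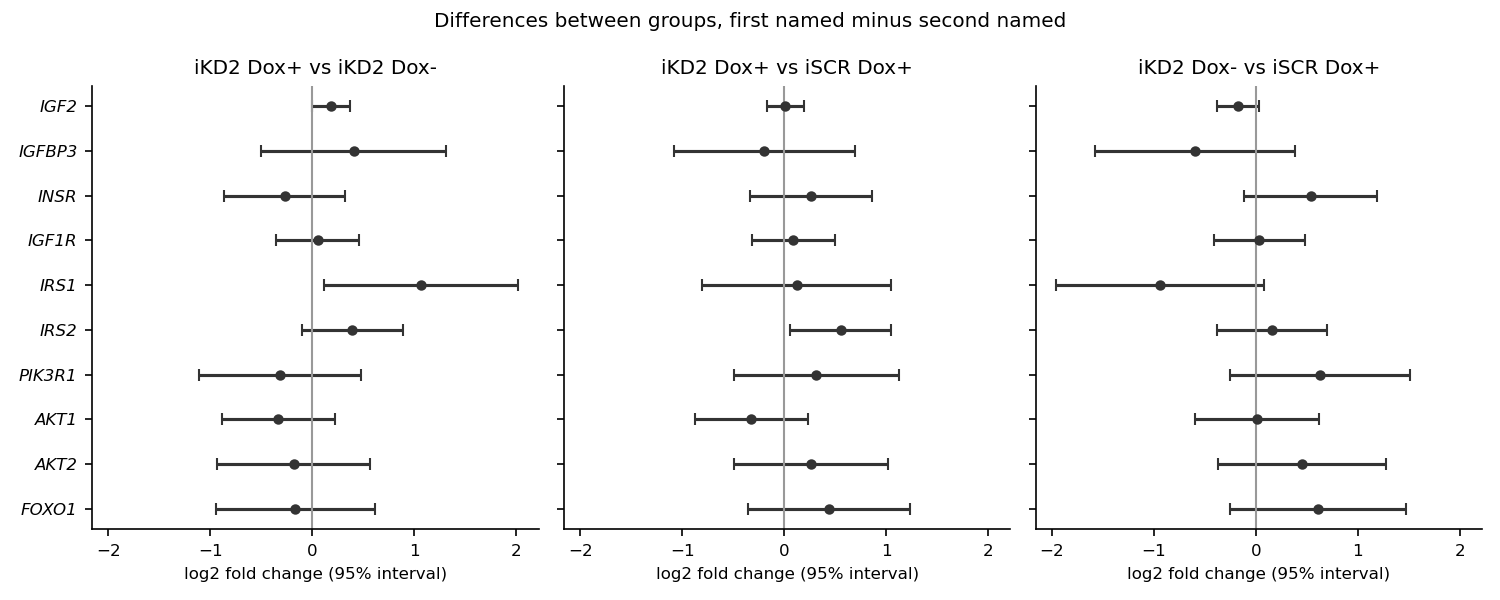
Log2 fold change of each gene (points) with its 95% interval (bars) by edgeR's quasi-likelihood fit in the 3 comparisons, first group minus second. Only IRS1 against iKD2 Dox- (0.11 to 2.02) and IRS2 against iSCR Dox+ (0.06 to 1.05) have intervals that leave out 0, before adjustment for the number of genes.

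The balance between related genes was then compared within each library, where scaling between libraries has no effect, as the log2 ratio of levels per length. INSR was below IGF1R in all 7 libraries, with ratios from -1.70 to -0.99, or 0.307 to 0.503 on a linear scale. IRS1 was below IRS2 in all 7, from -2.89 to -1.39, or 0.135 to 0.382. AKT1 was above AKT2 in all 7, from 0.53 to 1.81, or 1.45 to 3.51 times.

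With the longest transcript as length, these ranges were -1.67 to -0.96, -2.85 to -1.35 and 0.54 to 1.82. The IRS1 to IRS2 ratio was -2.21 ± 0.19 (SD) in iKD2 Dox+, -2.88 ± 0.02 in iKD2 Dox- and -1.85 ± 0.66 in iSCR Dox+. It was higher in every iKD2 Dox+ library than in both iKD2 Dox- libraries, by 0.67, with p = 0.2 in a two-sided exact permutation test. That is the smallest p that 3 against 2 libraries allow, and 2 against 2 cannot go below 0.333. The INSR to IGF1R ratio was -1.44 ± 0.25, -1.11 ± 0.17 and -1.61 ± 0.01, and the AKT1 to AKT2 ratio 0.81 ± 0.34, 0.94 ± 0.48 and 1.40 ± 0.58. Over the 9 comparisons of ratios, exact p ranged from 0.2 to 0.667, and each was 0.667 after Benjamini-Hochberg adjustment.

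**Figure D4:**
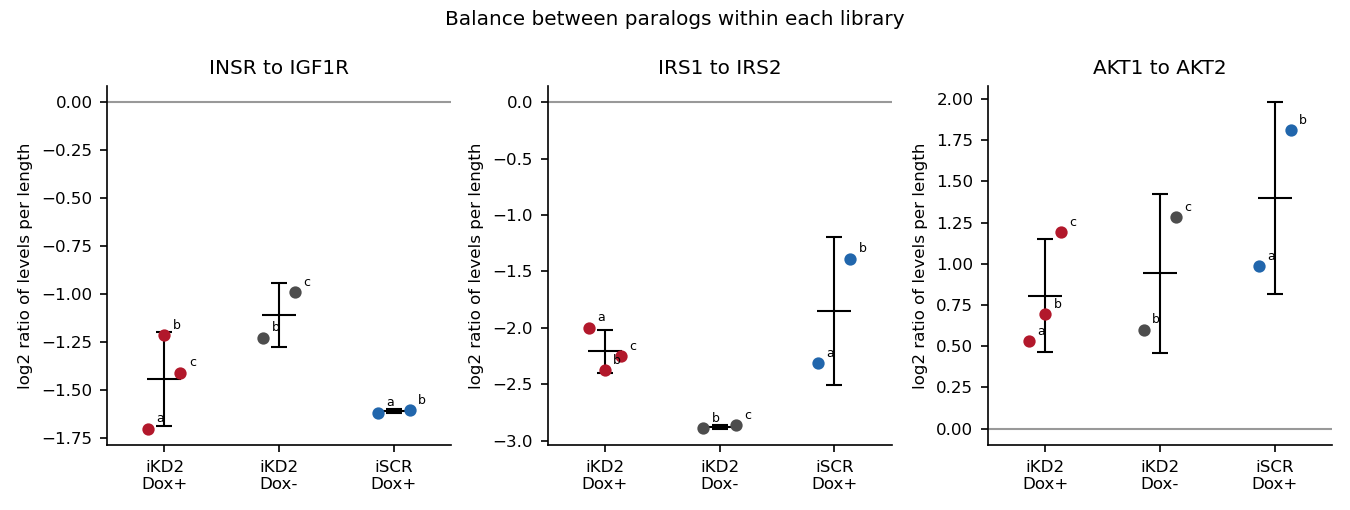
Log2 ratio of levels per length within a library (y axis) for INSR to IGF1R, IRS1 to IRS2 and AKT1 to AKT2, with 1 point per library and mean ± SD by group; the grey line at 0 marks equal levels. The first 2 ratios are below 0 and the last is above 0 in every library, and the iKD2 Dox- libraries have the lowest IRS1 to IRS2 ratios.

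Other genes of the pathway were taken from a list of 65, of which 64 could be tested; INSRR was listed at 0 in every library. By adjusted p, 0, 1 and 0 of the 64 changed in the 3 comparisons (0.0393%, 0.0262% and 0.0131% of all genes), and by unadjusted p 5, 6 and 6 passed (3.72%, 6.72% and 4.45% of all genes). The study criterion was met by 4 between iKD2 Dox+ and iKD2 Dox- (2 higher and 2 lower), 5 between iKD2 Dox+ and iSCR Dox+ (3 higher and 2 lower) and 5 between the controls (3 higher and 2 lower), against 3.55%, 6.52% and 4.38% of all genes. No count is read here as particular to the list. The median log2 fold change of the 64 was 0.11, 0.11 and -0.06, beside 0.01, 0.08 and 0.04 over all tested genes.

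Among ligands, INS was the 1 gene that passed the adjusted threshold. It was at 11620, 13580 and 11370 CPM in libraries a, b and c of iKD2 Dox+, 17390 and 14630 in libraries b and c of iKD2 Dox-, and 22300 and 21510 in libraries a and b of iSCR Dox+. Between iKD2 Dox+ and iSCR Dox+, the log2 difference of INS was -0.85 (SE 0.10), with adjusted p = 0.000471 by edgeR, although without iKD2 Dox+ a the adjusted p was 0.0638. Against iKD2 Dox- it was -0.39 (SE 0.10, adjusted p = 0.451 by edgeR). The controls themselves differed by -0.45 (SE 0.12), with adjusted p = 0.614 by edgeR but 0.0220 by DESeq2 and 8.9e-05 by limma voom. IGF1 had a level per length of at most 2.84 in any library, against at least 7187 for IGF2.

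Among binding proteins, IGFBP5 had the highest level per length of those listed (746 ± 168, SD over 7 libraries), above the 280.1 of IGFBP3. IGFBP7, a secreted protein with low affinity for IGFs, was at 160.2, 91.3 and 84.2 CPM in libraries a, b and c of iKD2 Dox+, 40.1 and 50.2 in libraries b and c of iKD2 Dox-, and 77.3 and 36.8 in libraries a and b of iSCR Dox+. All iKD2 Dox+ libraries were above all 4 controls, as for 3.47% of all genes tested. Its log2 fold changes of 1.31 (SE 0.42) and 0.97 (SE 0.41) met the study criterion but had adjusted p = 1 and 0.699 by edgeR. The mesenchymal marker sum was likewise highest in iKD2 Dox+ (714 to 1133 CPM), and its part in this value was not tested. IGFBP1 met the criterion between the controls, with 0.390 and 0.218 CPM in the iKD2 Dox- libraries against 23.3 and 7.42 in the iSCR Dox+ libraries.

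GRB10, an adaptor that restrains both receptors, met the study criterion against iKD2 Dox- alone, with log2 fold changes of -0.86 (SE 0.37) there and -0.63 (SE 0.37) against iSCR Dox+. PDPK1, the kinase that phosphorylates AKT, was 93.4 to 98.3 CPM in iKD2 Dox+, 33.0 and 67.9 in iKD2 Dox- and 71.3 and 78.0 in iSCR Dox+. It met the criterion against iKD2 Dox-, with a log2 fold change of 0.94 (SE 0.38). PDPK1 has a near-identical pseudogene copy, so that its count is uncertain.

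The adaptor genes GAB1 and SHC1 and the gene AKT1S1, whose product PRAS40 is an AKT substrate, were lower in both iSCR Dox+ libraries than in all iKD2 libraries. Of all genes tested, 11.3% were above both iSCR Dox+ libraries in every iKD2 Dox+ library, and 19.9% in every iKD2 Dox- library. The share for both iKD2 groups at once was not computed. AKT1S1 was at 59.2 to 100.9 CPM in iKD2 Dox+ and 56.4 to 64.0 in iKD2 Dox-, against 15.0 and 24.4 in iSCR Dox+. Its log2 fold change against iSCR Dox+ was 1.94 (SE 0.47) for iKD2 Dox+ and 1.62 (SE 0.49) for iKD2 Dox-, with adjusted p = 0.264 and 0.766 by edgeR. GAB1 gave 1.46 (SE 0.64) and 1.65 (SE 0.68) in the same comparisons. SHC1 met the study criterion between the controls only, with 0.95 (SE 0.45). TXNIP, a gene known to be repressed by insulin signalling and induced by glucose, met it there in the other direction, with -0.73 (SE 0.26).

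In each of the remaining roles, the listed gene with the highest level per length met neither threshold. These were IGF2R, the receptor that clears IGF2 (40.4 ± 8.83), the adaptor GRB2 (30.5 ± 8.68), the phosphatase PTPRF (93.2 ± 16.9), the PI3K subunit PIK3R2 (45.5 ± 11.4), the kinase GSK3B (46.1 ± 7.67) and FOXO3 (32.0 ± 12.5), each as mean ± SD over 7 libraries. Per length, PIK3R2 was thus above PIK3R1 (14.3), and IGF2R was between IRS2 and AKT1.

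**Figure D5:**
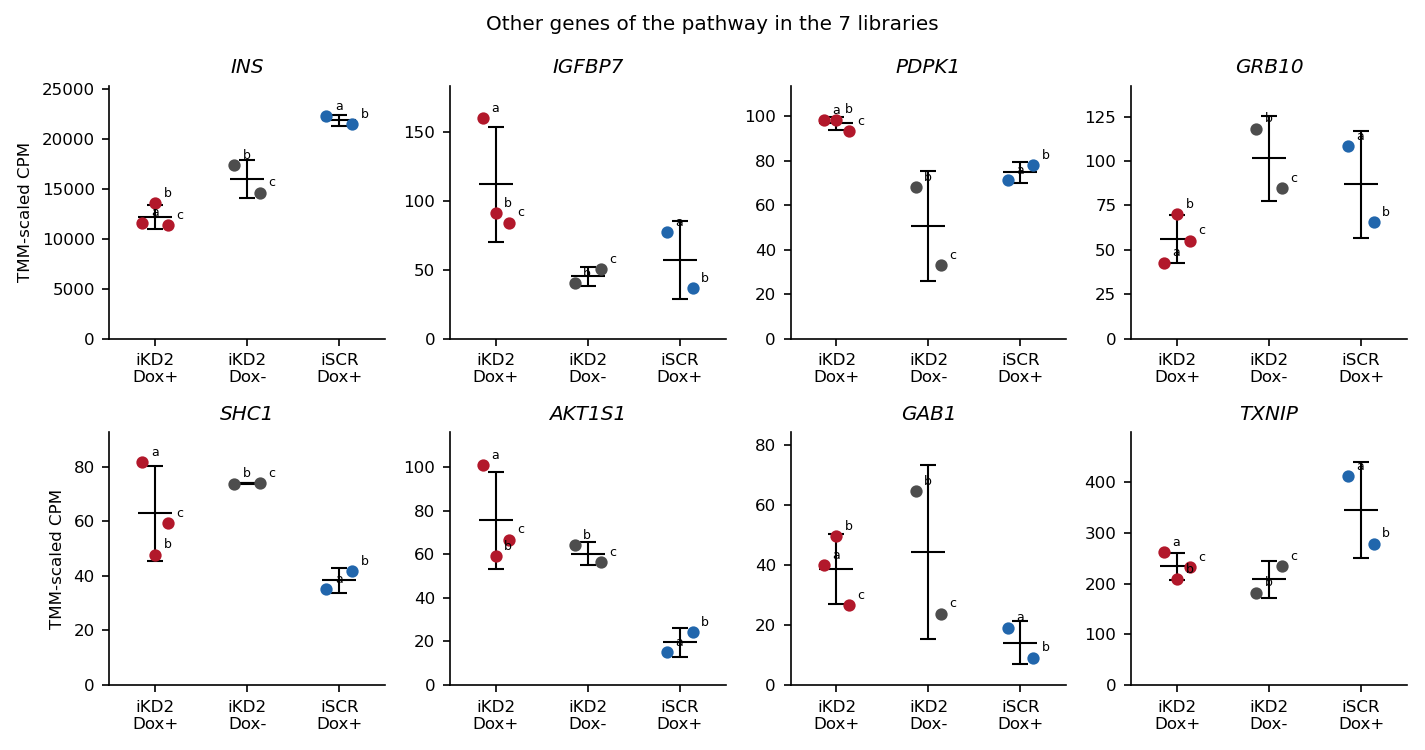
TMM-scaled CPM (y axis, from 0) of 8 other genes of the pathway in the 3 groups, with 1 point per library marked by its letter and the mean ± SD of the group. IGFBP7 and PDPK1 are above and INS is below all 4 controls in iKD2 Dox+, while AKT1S1 is lower in iSCR Dox+ than in both iKD2 groups. Of the 64 tested genes of the list, 2 were above all 4 controls (3.47% of all genes) and 4 below (2.83%). Of all genes, 11.3% were above both iSCR Dox+ libraries in every iKD2 Dox+ library, and 19.9% in every iKD2 Dox- library.

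The genes whose pattern over the 7 libraries was most like that of a member were sought for the 3 members with the widest range, as the root mean square difference of centred log2 CPM among 11757 other genes with a mean of at least 10 CPM. IRS1, with a 2.65-fold range, was nearest to POLR1F (0.14) and CACNG5 (0.15), where the median gene differed by 0.78. IGFBP3, with a 2.60-fold range, was nearest to ADM (0.14) and ACAT1 (0.17), beside a median of 0.75. FOXO1, with a 2.40-fold range, was nearest to DGCR2 (0.10) and NOPCHAP1 (0.14), beside a median of 0.69. With 7 libraries these likenesses are descriptions only.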

How the data were processed

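RNA-seq was performed on 7 libraries of sorted β-like cells. According to the study's methods and processing notes, reads were trimmed with fastp and quantified with Kallisto, and transcript estimates were summed by gene with tximport. The deposited values are estimated counts per gene, scaled by the authors neither for depth nor for length. Versions, annotation, genome build and strand setting are not given in the sources used here. Kallisto divides reads among the transcripts that they match, and counts were not whole in all 7 libraries for IGF2, IRS1 and AKT2. Of these genes, only IGF2 has exons that overlap those of another annotated gene.

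Estimated counts were rounded, filtered with filterByExpr (22926 genes), TMM-scaled and fitted in edgeR 4.0.16 under R 4.3.3 (quasi-likelihood test, robust, all 3 groups in one fit, Benjamini-Hochberg adjustment over all genes tested, calls at 0.05). CPM are given as TMM-scaled values, and errors are SD over libraries or SE of the log2 fold change. Ratios within a library used a pseudocount of 0.5 and two-sided exact permutation tests. The fit was tested on simulated counts. Alternatives were other scalings and filters, DESeq2 1.42.0, limma 3.58.1 (voom), the replicate letter as a block and each library left out. Coordinates and exon lengths are from GENCODE 29 (GRCh38), matched by gene ID, and the promoter is from RefSeq (GRCh38.p14).

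Libraries of a group differed by far more than sampling noise (index 97.7 to 163, where 1 is sampling noise only, for genes whose counts in both libraries sum to 50 or more), so each counted as 1 sample. The study calls them independent biological samples, and whether each was a separate differentiation is not given in the sources used here. The edgeR p-values rest on the spread between these libraries, estimated over all 3 groups and in part from other genes. A listed count of 0 allows up to 3 counts, which covers counting error only. The genes, gene lists and tests were chosen with earlier results of these data known. Named genes were the 10, METTL14, the genes at the IGF2 locus, every listed pathway gene past a threshold (except 1, which is counted but not reported here), the gene with the highest level per length in each role, and for the 3 members with the widest range (mean of at least 10 CPM) the 2 nearest patterns.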

Additional observations from a re-analysis of the deposited data

How the results depend on the processing

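The SE of the log2 fold changes of the 10 genes ranged from 0.09 (IGF2) to 0.49 (IRS1). Of 246 log2 fold changes of the 10 genes under other scalings, filters, tools, sample sets or gene sums, 10 changed sign, all of them near 0, and 0 changed their side of the adjusted threshold. IGF2 between iKD2 Dox+ and iSCR Dox+ became -0.014 with DESeq2 size factors or the DESeq2 Wald test, -0.00025 with a mean CPM of at least 5, -0.038 with limma voom and -0.030 with the replicate block. IGF1R between the controls became -0.0030 with DESeq2 size factors or the DESeq2 Wald test and -0.014 with the replicate block, and AKT1 between the controls became -0.024 with DESeq2 size factors or the DESeq2 Wald test. The cause was not tested.

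Of 210 values with 1 library left out, 18 changed sign and 1 passed the adjusted threshold (IGFBP3 between the controls, -0.89 without iSCR Dox+ b). Between iKD2 Dox+ and iKD2 Dox-, left-out values ranged from -0.013 to 0.68 for IGFBP3, -0.020 to 0.12 for IGF1R, -0.51 to 0.16 for AKT2 and -0.46 to 0.18 for FOXO1. Between iKD2 Dox+ and iSCR Dox+, they ranged from -0.042 to 0.064 for IGF2, -0.61 to 0.18 for IGFBP3, -0.049 to 0.24 for IGF1R, -0.27 to 0.67 for IRS1 and -0.074 to 0.72 for AKT2. Between the controls, they ranged from -0.10 to 0.19 for IGF1R and -0.0033 to 0.034 for AKT1. The difference of the IRS1 to IRS2 ratio from iSCR Dox+ ranged from -0.82 to 0.11, and that of the AKT1 to AKT2 ratio from iKD2 Dox- ranged from -0.48 to 0.20; a pseudocount of 2 changed no sign.

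With 1 iKD2 Dox+ library left out, 0 to 1 of the 10 genes met the study criterion against iKD2 Dox-, beside 2.61% to 3.09% of all genes. Leaving out a control library leaves 1 library in its group, so counts of passing genes are not compared there. Between the controls, 1 of the 10 met the study criterion with the DESeq2 Wald test (11.7% of all genes) and 1 with the replicate block (3.14%). Of the pathway genes, INS passed the adjusted threshold between iKD2 Dox+ and iSCR Dox+ without iKD2 Dox+ b (0.041% of all genes) or c (0.0184%). None passed there without iKD2 Dox+ a (0.00898%). In the same comparison, 2 pathway genes passed without a filter (0.196%) or with the DESeq2 Wald test (3.8%). Between the controls, 3 passed with the DESeq2 Wald test (2.07%) and 1 with limma voom (0.00872%). Those past the study criterion ranged from 2 to 6, 3 to 10 and 2 to 7 with 1 library left out. With the DESeq2 Wald test, 7 and 8 pathway genes met it in the first and second comparisons (8.11% and 14.4% of all genes). With only the groups compared, 3 met it in the second (5.25%). Between the controls, 3 met it with limma voom (5.81%), only the groups compared (4.61%) or the replicate block (3.14%). Correlations of deviations from group means were -0.035 to 0.0099 for same-letter libraries. In a group of 2 libraries these deviations mirror each other. The correlations therefore cannot decide whether the letters pair the samples. With the replicate block, the IRS1 value against iKD2 Dox- was 1.17 and that of IRS2 against iSCR Dox+ 0.55. Over the 3 comparisons, the block moved IGFBP3 from 0.40, -0.19 and -0.60 to 0.0019, -0.064 and -0.066, and AKT2 from -0.18, 0.27 and 0.45 to -0.52, 0.54 and 1.05. It moved INSR from -0.27 to -0.16 against iKD2 Dox- and from 0.54 to 0.35 between the controls.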
